A study of Rattus norvegicus with 15 samples.

Results

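The glutathione, peroxiredoxin and thioredoxin systems, with the superoxide dismutases and catalase, were followed as 52 genes in rat prostate. They are the protein-coding genes of the deposited table whose symbol starts with Gpx, Prdx, Txnrd or Sod and a digit, or with Gsta, Gstm, Gstp, Gstt, Gsto, Gstk or Mgst and a digit, together with Gclc, Gclm, Gss, Gsr, Txn1, Txn2, Cat, Nqo1 and Hmox1. The table holds 22436 genes, of which 18127 are protein coding, and 49 of the 52 antioxidant genes were expressed highly enough to be tested. The data are 15 RNA-seq libraries of prostate from SD rats (Sprague Dawley, an outbred laboratory strain), 5 in each of 3 groups. Control is named as such in the labels and had no treatment. Model is a prostatitis model, labelled CP/CPPS (chronic prostatitis, or chronic pelvic pain syndrome), and has no treatment in its labels either. LIPUS had low-intensity pulsed ultrasound, sound waves given in short bursts, for 4 weeks, at 1.0 W/cm2 by the sample titles and 1.5 W/cm2 by the treatment field. The series' design text places the ultrasound in the model rats. The sources used here do not give the age of the animals, the lobe of the prostate sampled or how prostatitis was induced. Whether the 5 samples of a group are 5 animals is not stated, so the spread behind each p-value may be partly technical.

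Cells remove superoxide with superoxide dismutases, which turn it into hydrogen peroxide. Catalase, the glutathione peroxidases and the peroxiredoxins then reduce the peroxide. Glutathione peroxidases draw their electrons from glutathione, a small thiol made by glutamate-cysteine ligase and glutathione synthetase and regenerated by glutathione reductase. Peroxiredoxins mostly draw theirs from thioredoxin, which thioredoxin reductase recharges with NADPH. Glutathione transferases join glutathione to reactive chemicals and lipid products, and many of these genes are known targets of the transcription factor NRF2, which binds the antioxidant response element. In the human prostate, silencing of GSTP1 by methylation of its promoter is a well-known mark of cancer.

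Promoters were read from RefSeq on the GRCr8 build, 250 bases before and 50 bases after the annotated start, and were searched for the core of the antioxidant response element, TGACNNNGC, on either strand (GCNNNGTCA when read on the other strand, with overlaps allowed). The submitters' processing notes name rn6, so these positions are not those of the deposited table. Of the 52 genes, 43 had a promoter in the RefSeq table and 12 of these held the core (27.9%), against 12.1% of all 33469 promoters and 14.5% of the 11314 promoters of tested genes. The 12 are Gclm, Gpx2, Gsta1, Gsta2, Gsta3, Gstm5, Gstm7, Gstp1, Prdx1, Prdx4, Prdx5 and Sod2, and Gstm5 held the core at 2 places. No promoter was given there for Gpx8, Gsr, Gstm6l, Gstt1, Gstt2, Hmox1, Mgst2, Prdx6 and Sod3. The 6 promoters below are shown because their genes come back in the results: Gpx2 and Gsta3 were low in a Model library that stood apart, Gstm5, Gstp1 and Prdx1 were high in it, and Gpx4, the gene with the smallest adjusted p in Model, held no core in this window. Each is written in the direction of its gene in lower case, with the core in capitals.
Gpx2, chr6:101229984-101230283, minus strand: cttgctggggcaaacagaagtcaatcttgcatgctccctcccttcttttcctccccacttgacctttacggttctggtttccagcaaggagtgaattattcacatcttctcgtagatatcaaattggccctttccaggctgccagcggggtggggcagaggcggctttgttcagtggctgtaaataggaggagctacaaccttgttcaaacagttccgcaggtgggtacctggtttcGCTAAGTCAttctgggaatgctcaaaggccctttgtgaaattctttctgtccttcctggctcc
Gsta3, chr9:31154739-31155038, plus strand: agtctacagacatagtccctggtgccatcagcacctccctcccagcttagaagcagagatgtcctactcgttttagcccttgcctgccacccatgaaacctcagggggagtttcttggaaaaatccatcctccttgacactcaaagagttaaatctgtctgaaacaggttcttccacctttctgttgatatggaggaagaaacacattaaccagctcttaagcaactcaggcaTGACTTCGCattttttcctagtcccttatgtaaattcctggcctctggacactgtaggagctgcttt
Gstm5, chr2:198219519-198219818, plus strand: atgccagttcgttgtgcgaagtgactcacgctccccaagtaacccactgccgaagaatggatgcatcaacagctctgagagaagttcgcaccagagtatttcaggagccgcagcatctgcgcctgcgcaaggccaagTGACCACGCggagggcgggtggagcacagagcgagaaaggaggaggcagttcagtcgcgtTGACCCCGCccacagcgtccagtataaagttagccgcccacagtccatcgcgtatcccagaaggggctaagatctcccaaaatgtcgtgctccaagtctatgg
Gstp1, chr1:210769656-210769955, minus strand: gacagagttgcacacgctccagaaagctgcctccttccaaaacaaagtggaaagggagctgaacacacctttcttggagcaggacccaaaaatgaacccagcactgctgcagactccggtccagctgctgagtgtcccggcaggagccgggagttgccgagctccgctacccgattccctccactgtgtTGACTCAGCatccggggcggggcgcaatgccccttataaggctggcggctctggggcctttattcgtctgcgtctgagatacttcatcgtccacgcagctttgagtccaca
Prdx1, chr5:135383656-135383955, plus strand: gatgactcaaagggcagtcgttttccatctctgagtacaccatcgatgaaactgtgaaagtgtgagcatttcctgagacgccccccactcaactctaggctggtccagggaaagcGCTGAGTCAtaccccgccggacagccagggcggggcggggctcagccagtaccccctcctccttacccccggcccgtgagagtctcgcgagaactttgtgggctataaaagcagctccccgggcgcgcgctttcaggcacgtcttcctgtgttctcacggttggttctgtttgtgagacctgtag
Gpx4, chr7:10303580-10303879, minus strand: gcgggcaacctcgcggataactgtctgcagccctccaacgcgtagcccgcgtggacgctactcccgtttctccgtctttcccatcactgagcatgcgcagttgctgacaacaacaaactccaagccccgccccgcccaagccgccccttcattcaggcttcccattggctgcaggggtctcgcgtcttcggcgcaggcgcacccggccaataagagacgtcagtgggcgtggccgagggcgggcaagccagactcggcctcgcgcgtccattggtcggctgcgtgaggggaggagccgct
The core began 13 bases before the start in Gpx2, 17 before it in Gsta3, 61 before it in Gstp1 and 135 before it in Prdx1, and the cores of Gstm5 began 113 and 53 bases before it. A match is a string of letters in this window and shows no binding.

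Whole reads recovered from the deposited values summed to 29675962 to 36402094 per library. The libraries differed in make-up, and this bears on every level below. Mitochondrially encoded genes took 4.23% ± 0.406 (SD, n = 5) of the reads in Control, 34.9% ± 9.18 in Model and 59.6% ± 15.7 in LIPUS, where LIPUS_10 reached 83.3% (two-sided exact permutation p = 0.00794 for each against Control, or 0.0179 after adjustment over 9 tests, where 252 splits allow no smaller p). As deposited, the log2 change of the median gene was −0.90 in Model against Control, −0.60 in LIPUS against Model and −1.48 in LIPUS against Control. Levels are therefore given as scaled FPKM, which is the deposited FPKM divided by a median-of-ratios factor for each library (0.299 to 1.78). After scaling the median gene moved by −0.15, −0.02 and −0.16. Model_7 stood apart from the other Model libraries. Its ratio of ventral-lobe secretory transcripts (Scgb1d2, Scgb1d4 and Scgb2a1) to dorsolateral ones (Pbsn and Msmb) was 7.79 on the log2 scale. The other 4 Model libraries lay between −9.51 and −2.84, and the group means were 3.89 ± 1.84 in Control and 1.32 ± 2.05 in LIPUS. The 7 luminal epithelial markers summed to 347 scaled FPKM or more in every library. Secretory markers varied far more. The 4 ventral-lobe ones (those above and Sbp) summed to 259 in Model_9 and up to 198514 in LIPUS_9. The 2 dorsolateral ones summed to 274 in Model_7 and up to 186411 in Model_9. In bulk tissue, fewer cells of a type and less RNA per cell cannot be told apart.

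In Model against Control, 7 of the 49 tested antioxidant genes were higher and 4 were lower at a limma adjusted p under 0.05, which is what "called" means here. The higher genes were Gpx4, Prdx2, Prdx3, Sod1, Txn2, Gstk1 and Mgst2, of which deposited values turn the sign of Prdx3, Txn2 and Gstk1, and the lower ones were Sod3, Gclc, Mgst1 and Prdx4. These are 14.3% and 8.16% of the antioxidant genes, beside 15.3% and 20.2% of all 12490 tested genes called higher and lower, so the share called higher was near the background. The median log2 change was 0.18 over the antioxidant genes and −0.15 over all genes. In LIPUS against Control, 8 were higher (Gpx1, Gpx4, Prdx2, Prdx3, Prdx6, Sod1, Txn2 and Mgst2, all but Mgst2 with the opposite sign as deposited) and Mgst1 was lower. These are 16.3% and 2.04%, beside 11.6% and 14.3% of all genes. In LIPUS against Model, Sod3 was higher and 0 genes were lower by limma, beside 2.72% and 1.49% of all genes, while 11 of the 49 had an unadjusted p under 0.05. The comparisons share samples, so their calls are not independent of each other.

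Scaling set the direction of part of these calls. With the FPKM as deposited, 1 antioxidant gene was called higher and 11 lower in Model against Control (2.95% and 43.1% of all genes), 1 and 4 in LIPUS against Model (1.31% and 13.3%), and 0 and 22 in LIPUS against Control (0.953% and 74.4%), where 23 had an unadjusted p under 0.05 by limma. The 4 scalings tried were median of ratios, as deposited, quantile normalization and scaling to the sum of nuclear-encoded FPKM. Measured against the median gene of the same scaling, all 11, 1 and 9 called antioxidant genes kept their direction with quantile normalization. The other scalings differ by 1 factor per library, which this measure cancels apart from the added 0.1. Their agreement was fixed in advance and lends the calls no support. A rise below is a rise relative to the median gene. Quantile normalization and the nuclear sum each ended the calls of Prdx3, Sod1 and Txn2 in Model and in LIPUS and those of Gpx1 and Prdx6 in LIPUS, and the nuclear sum also ended those of Gstk1 and Mgst2 in Model and Prdx2 in LIPUS.

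**Figure D1:**
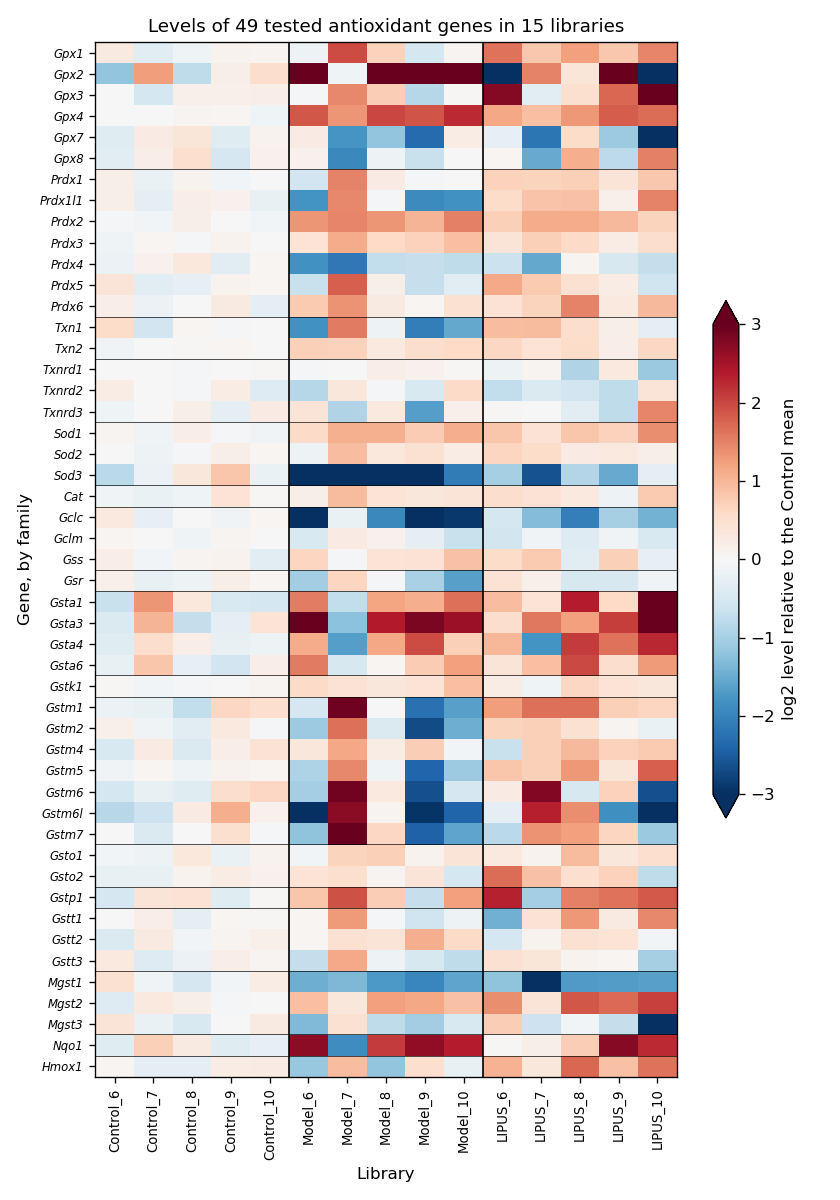
Level of the 49 tested antioxidant genes (rows, by family) in the 15 libraries (columns, by group), as the log2 ratio of scaled FPKM plus 0.1 to the mean of Control on that scale, with colours ending at −3 and 3. Gpx4, Prdx2 and Sod1 are red through Model and LIPUS, a direction that deposited values turn for all of them in LIPUS against Control, while Sod3 is blue in Model, and Model_7 differs from the other Model libraries in Gstm1, Gstm2, Gpx2 and Nqo1.

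Glutathione peroxidases reduce hydrogen peroxide and lipid peroxides with glutathione. Gpx4 (gene 29328), the member that reduces peroxides of membrane phospholipids and so holds back ferroptosis, rose in Model and stayed called in LIPUS. It stood at 39.0, 39.6, 41.2, 40.6 and 35.6 scaled FPKM in Control 6 to 10, at 144, 97.9, 157, 146 and 184 in Model 6 to 10, and at 87.6, 72.7, 95.9, 138 and 125 in LIPUS 6 to 10. The highest Control library, at 41.2, was well under the lowest of the other 10 libraries, at 72.7, and Model_7 was the lowest of Model. The log2 change was 1.86 (SE 0.19, limma adjusted p = 1.07e-05) in Model against Control, a 3.64-fold rise, and 1.08 with deposited values (adjusted p = 0.00268). In LIPUS against Control it rose by 1.37 (SE 0.19, limma adjusted p = 0.000171), while the deposited values gave −0.068, the opposite sign, with the median gene at −1.48.

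Gpx1 (gene 24404), the abundant cytosolic member, was called in LIPUS against Control. Its levels were 95.3, 62.6, 71.4, 84.4 and 83.7 scaled FPKM in Control 6 to 10, 71.1, 304, 127, 54.2 and 83.7 in Model and 243, 138, 184, 137 and 216 in LIPUS. All LIPUS libraries lay above all Control libraries, whereas Model spanned them, with Model_7 the highest of all 15. The rise over Control was 1.18 on the log2 scale (SE 0.36, limma adjusted p = 0.0251), it turned to −0.25 with deposited values, and the call ended without Control_7, without Control_8 or without LIPUS_6 (adjusted p up to 0.06), with quantile normalization and with the nuclear sum. Macrophage markers were also higher in LIPUS than in Control: the summed level of 12 of 12 markers was 80.9 to 119 scaled FPKM in Control, 99.1 to 287 in Model with Model_7 highest, and 189.9 to 693 in LIPUS, with no marker at 0 throughout a group. Within LIPUS, LIPUS_9 had the highest macrophage sum (693) with Gpx1 at 137, and LIPUS_7 had the lowest sum (189.9) with Gpx1 at 138. The part of these markers in the result was not tested.

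The other glutathione peroxidases were not called. Gpx2, the epithelial form best known from the gut, averaged 2.30 ± 1.55 (SD, n = 5) scaled FPKM among Control, 24.1 ± 14.5 among Model and 12.6 ± 23.9 among LIPUS libraries, and its LIPUS libraries ran from 0 in LIPUS_6 and LIPUS_10 to 55.2 in LIPUS_9. Gpx3, the secreted plasma form, was at 11.8 ± 2.16 in Control and 16.1 ± 9.86 in Model, and its LIPUS libraries ran from 9.11 to 101, with 79.0 in LIPUS_6 and 101 in LIPUS_10. Gpx7 and Gpx8, members of the endoplasmic reticulum, lay between 0 and 5.51 and between 2.01 and 22.9 over the 15 libraries. Gpx5, known as an epididymal enzyme, had at least 1 read in Model and none elsewhere and was not tested.

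Peroxiredoxins reduce peroxides through a reactive cysteine. Prdx2 (gene 29338), a cytosolic form that is also a major protein of red cells, rose in Model and, relative to the median gene, in LIPUS, where deposited values turn the sign. Its levels were 82.3, 78.7, 94.0, 84.8 and 79.8 scaled FPKM in Control 6 to 10, 209.7, 232, 209, 171 and 239 in Model and 137, 182, 182, 164 and 133 in LIPUS. Control did not overlap with either group. The log2 change was 1.33 (SE 0.14, limma adjusted p = 1.16e-05) in Model against Control and 0.55 as deposited (adjusted p = 0.185). In LIPUS against Control it was 0.92 (SE 0.14, limma adjusted p = 0.000321) and −0.52 as deposited. Erythrocyte markers were uneven beside it: 7 of 7 markers summed to 208 to 417 scaled FPKM in the Control libraries, 84.6 to 1029 in the Model libraries and 206 to 2459 in LIPUS, and Slc4a1, the red-cell anion exchanger, was listed at 0 in every LIPUS library. Their part in the result was not tested.

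Prdx3 (gene 64371), the mitochondrial peroxiredoxin, stood at 32.7, 36.9, 34.6, 38.4 and 35.3 scaled FPKM in Control 6 to 10, at 47.4, 77.01, 54.0, 57.2 and 66.8 in Model and at 46.2, 58.1, 52.7, 41.8 and 50.9 in LIPUS. All Control libraries lay below all others. Its log2 change was 0.75 in Model (SE 0.15, limma adjusted p = 0.00112) and −0.033 as deposited, and 0.48 in LIPUS (SE 0.15, limma adjusted p = 0.0244) and −0.95 as deposited, so the sign turns in each. The LIPUS call ended without Control_6, Control_8, Control_10, LIPUS_7 or LIPUS_8 (adjusted p up to 0.0614). The mitochondrial share of reads averaged 4.23% in Control, 34.9% in Model and 59.6% in LIPUS. Its part in the level of Prdx3 was not tested. In the RefSeq annotation 17 of the 52 genes overlap another gene, among them Prdx3, Prdx6 and Txn2 with an uncharacterised locus each, and the strand used in counting is not stated, so such levels are uncertain.

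Prdx4 (gene 85274), the peroxiredoxin of the endoplasmic reticulum, fell in Model. It was at 10.5, 12.9, 14.8, 9.43 and 12.3 scaled FPKM in Control 6 to 10, at 3.29, 2.60, 7.09, 7.24 and 6.89 in Model and at 7.56, 4.02, 12.5, 8.50 and 7.14 in LIPUS. The highest Model library lay below the lowest Control library, and LIPUS reached from below that range into Control. The log2 change in Model was −1.23 (SE 0.32, limma adjusted p = 0.00839), and the call held in all 27 alternatives tried. In LIPUS against Control the gene was not called (means 7.94 ± 3.04 and 11.99 ± 2.12).

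Prdx6 (gene 94167), which also acts as a phospholipase, was called in LIPUS against Control. The levels were 84.8, 65.8, 73.2, 88.7 and 61.6 scaled FPKM in Control 6 to 10, 129, 188, 88.7, 77.3 and 102 in Model and 101, 117, 207, 91.4 and 145 in LIPUS. The lowest LIPUS library, at 91.4, lay just above the highest Control library, at 88.7. The rise of 0.77 (SE 0.25, limma adjusted p = 0.0367) turned to −0.66 as deposited and the call ended in 12 of 27 alternatives, among them the fits without Control_6, Control_7, Control_8, Control_10, LIPUS_7, LIPUS_8 or LIPUS_10.

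Prdx1 and Prdx5 are among the 5 antioxidant genes with the highest mean level and were not called. Prdx1, a cytosolic form, was at 125, 97.1, 121, 106 and 113 scaled FPKM in Control 6 to 10, at 74.5, 313, 132, 107 and 112 in Model and at 179.6, 177, 184, 146 and 196 in LIPUS. All LIPUS libraries were above all Control libraries on this scale, while the log2 change was −0.78 as deposited, and Model_7 was above every other library. Prdx5, found in mitochondria, peroxisomes and cytosol, was at 144, 88.2, 93.7, 119 and 115 in Control, at 69.2, 382, 124, 68.5 and 88.3 in Model and at 243, 189.6, 153, 129.8 and 72.7 in LIPUS. The groups overlapped and Model_7 was again the highest library. Prdx5 overlaps Trmt112 in the annotation, and the strand used in counting is not stated, so its reads may include that gene's. Prdx1l1, a near copy of Prdx1 whose reads may be shared with it, lay between 5.11 and 55.4 over the 15 libraries.

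Thioredoxin carries electrons to peroxiredoxins and other targets. Txn1 (gene 116484), the cytosolic thioredoxin, had the highest level of all 52 genes. It was at 2011, 918, 1426, 1337 and 1361 scaled FPKM in Control 6 to 10, at 389, 4025, 1228, 325 and 469.8 in Model and at 2617, 2638, 1967, 1554 and 1141 in LIPUS. Model_7 held the highest value of all libraries and the other Model libraries included the 3 lowest, and no comparison called Txn1. Txn2 (gene 79462), the mitochondrial thioredoxin, was at 20.9, 22.5, 23.3, 23.5 and 22.6 in Control, at 37.2, 36.4, 27.5, 32.6 and 34.1 in Model and at 34.6, 30.1, 33.1, 25.9 and 34.5 in LIPUS. Every Control library was below every other library. It rose by 0.57 in Model (SE 0.13, limma adjusted p = 0.003) and by 0.48 in LIPUS (SE 0.13, limma adjusted p = 0.0122), and deposited values turn these to −0.21 and −0.95. None of the thioredoxin reductases was called. Txnrd1, the cytosolic one, was at 6.40 ± 0.129, 6.73 ± 0.458 and 5.35 ± 2.13 scaled FPKM in Control, Model and LIPUS. Txnrd2, the mitochondrial one, was at 2.74 ± 0.462, 2.70 ± 1.07 and 2.09 ± 0.852, and Txnrd3 lay between 0.167 and 2.20.

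Superoxide dismutases went in opposite directions in Model. Sod1 (gene 24786), the copper-zinc enzyme of the cytosol, was at 89.3, 78.5, 96.6, 80.7 and 77.9 scaled FPKM in Control 6 to 10, at 126, 177, 178, 143 and 179.8 in Model and at 149.9, 113, 149.9, 136 and 221 in LIPUS. No Control library reached the lowest of the others. The rise was 0.91 in Model (SE 0.17, limma adjusted p = 0.000973), and 0.13 and not called as deposited (adjusted p = 0.666). In LIPUS it was 0.83 over Control (SE 0.17, limma adjusted p = 0.00289), and the deposited values turn it to −0.60.

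Sod3 (gene 25352), the secreted enzyme that binds to the extracellular matrix, had the largest fall among the called antioxidant genes and was the only one called between LIPUS and Model. Its levels were 2.96, 4.63, 6.66, 9.40 and 4.59 scaled FPKM in Control 6 to 10, 0.448, 0.348, 0.119, 0.211 and 1.15 in Model and 2.56, 0.777, 2.79, 1.78 and 4.34 in LIPUS. All Model libraries lay below all Control libraries, and LIPUS reached from LIPUS_7, under Model_10, to LIPUS_10, inside the Control range. These levels rest on 2876 reads over the 5 Control libraries, 137 over Model and 373 over LIPUS. The log2 change was −3.53 in Model against Control (SE 0.49, limma adjusted p = 8.16e-05), an 11.6-fold fall that held in all 27 alternatives. From Model to LIPUS it rose by 2.28 (SE 0.49, limma adjusted p = 0.0238), and by 1.63 as deposited. That call was made with Control in the fit, which shares 1 estimate of the spread. With Model and LIPUS alone, limma's adjusted p was 0.147 and 1 gene of 12490 was called. The call also ended with array weights, with the replicate block (adjusted p = 0.0561) and without Model_8, Model_9, LIPUS_8 or LIPUS_10, 7 of 27 alternatives in all, and stood without Model_7 (2.27, adjusted p = 0.00579). Fibroblast and smooth muscle markers were also lower in Model than in Control. The 6 of 6 fibroblast markers summed to 427 to 730.2 scaled FPKM in the Control libraries, 53.2 to 156 in Model and 71.8 to 474 in LIPUS, and the 5 of 5 smooth muscle markers to 612 to 1468, 73.4 to 629.6 and 179 to 843, with none at 0 throughout a group. The low end of Model was Model_7 for each of these sums. From Model to LIPUS the means went from 112 to 234 for fibroblasts and from 414 to 436 for smooth muscle, and the part of either was not tested.

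Sod2, the manganese enzyme of mitochondria, and Cat, the peroxisomal catalase, were not called. Sod2 was at 20.1 ± 1.77, 26.4 ± 7.36 and 26.4 ± 3.87 scaled FPKM in Control, Model and LIPUS (SD, n = 5). Cat was at 18.9 ± 3.42, 26.1 ± 5.74 and 24.8 ± 5.71.

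Glutathione is made in 2 steps. Gclc (gene 25283), the catalytic subunit of glutamate-cysteine ligase and so of the rate-limiting step, fell in Model, while its modifier subunit Gclm and the synthetase Gss were not called. Gclc was at 11.7, 8.06, 9.57, 8.89 and 9.89 scaled FPKM in Control 6 to 10, at 0.552, 8.37, 2.44, 0.735 and 1.20 in Model and at 6.55, 3.80, 2.25, 4.72 and 3.49 in LIPUS. Model_7 lay inside the Control range, the other 4 Model libraries lay far below it, and all LIPUS libraries lay below all Control libraries. The log2 change in Model was −2.49 (SE 0.53, limma adjusted p = 0.00227), and −3.06 without Model_7. With the lobe ratio of each library as a covariate it was −1.01 (adjusted p = 0.0229). Gclm was at 10.1 ± 0.611, 9.00 ± 2.44 and 8.10 ± 1.16 scaled FPKM in Control, Model and LIPUS, and Gss at 4.23 ± 0.589, 5.97 ± 1.41 and 5.46 ± 1.91. Gsr, the reductase that regenerates glutathione, was at 23.3 ± 2.87, 17.8 ± 11.7 and 22.4 ± 6.38, with 36.1 in Model_7 and 7.38 to 22.5 in the other Model libraries. Gss overlaps Myh7b in the annotation.

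Of the glutathione transferases, the microsomal Mgst1 and Mgst2 and the kappa-class Gstk1 were called. Mgst1 (gene 171341), a membrane enzyme with transferase and peroxidase activity, was at 80.5, 54.1, 41.2, 54.7 and 68.4 scaled FPKM in Control 6 to 10, at 21.0, 22.9, 17.5, 14.998 and 19.3 in Model and at 25.4, 6.98, 17.7, 18.1 and 18.9 in LIPUS. Every Control library was above every other library. It fell by 1.62 in Model (SE 0.28, limma adjusted p = 0.00052) and by 1.85 in LIPUS (SE 0.28, limma adjusted p = 0.000333), and each call held in all 27 alternatives. Mgst2 (gene 295037), which can also make leukotriene C4, was at 0.773, 1.30, 1.19, 1.01 and 1.04 in Control, at 2.05, 1.36, 2.61, 2.48 and 1.998 in Model and at 2.92, 1.39, 4.10, 3.64 and 4.62 in LIPUS. Model_7 and LIPUS_7 were just above the highest Control library. It rose by 1.48 in LIPUS over Control (SE 0.30, limma adjusted p = 0.0024), and by 0.12 as deposited. In Model the rise of 0.91 (SE 0.30, limma adjusted p = 0.029), 0.18 as deposited, lost its call in 9 of 27 alternatives. Among them were the lobe covariate (0.59, limma adjusted p = 0.23) and the fits without Control_6, Control_9, Control_10, Model_8, Model_9 or Model_10. Gstk1 (gene 297029), found in mitochondria and peroxisomes, was at 6.33, 5.73, 5.98, 6.15 and 6.46 in Control, at 9.18, 8.36, 7.78, 8.22 and 11.5 in Model and at 7.21, 5.57, 9.49, 8.22 and 7.72 in LIPUS. All Model libraries were above all Control libraries. The rise in Model was 0.53 (SE 0.16, limma adjusted p = 0.0188), it turned to −0.24 as deposited and to −0.0013 when scaled to the nuclear sum, and the call also ended with the lobe covariate (adjusted p = 0.0724) and without Model_10 (adjusted p = 0.0558). Mgst3 was not called, at 22.8 ± 5.24, 16.0 ± 8.80 and 17.6 ± 12.9 in Control, Model and LIPUS.

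The mu, alpha, pi, omega and theta classes of transferase were not called in the main fit, though alternatives called some of them. These were array weights, the lobe covariate, deposited values, quantile normalization, a pseudocount of 1, 2-group fits, the replicate block and some fits with a library left out. Gstm2, a mu-class enzyme with the second-highest mean level of the 52 genes, was at 223, 185, 161, 244 and 196 scaled FPKM in Control 6 to 10, at 93.2, 623, 148, 30.8 and 72.6 in Model and at 316, 329.7, 272, 213 and 174 in LIPUS. The Model libraries other than Model_7 all lay below Control and LIPUS, and Model_7 lay above every library. Gstm1 followed the same order within Model, with 346 in Model_7 and 9.71 to 45.4 in the others, beside 27.2 to 71.1 in Control and 71.5 to 145 in LIPUS. Gstm5, Gstm6, Gstm6l and Gstm7 were likewise highest of Model in Model_7 (38.9, 4.52, 61.7 and 105 scaled FPKM), and so was Gstm4 at 7.98. Mu-class genes are near copies of each other in a cluster, so reads may be split among them and single members are uncertain. Gstm3l had at least 7 reads in all, 5 or more in Control and 2 or more in Model, and was not tested.

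The 4 tested alpha-class transferases were each lowest of Model in Model_7. Gsta1 was at 50.5 ± 22.8 scaled FPKM in Model with 13.7 in Model_7, beside 26.5 ± 18.1 in Control and 87.5 ± 78.5 in LIPUS. Gsta3 was at 0 in Model_7 and 1.12 to 1.84 in the other Model libraries, beside 0.0424 to 0.371 in Control. Gsta4, which handles the lipid peroxidation product 4-hydroxynonenal, was at 1.52 in Model_7 and 8.15 to 19.5 in the others, and Gsta6 at 1.66 and 2.48 to 7.17. Gsta2 had at least 5 reads, all in Control, and was not tested. Gstp1, the pi-class enzyme, was at 15.3 ± 4.41, 30.2 ± 17.01 and 44.7 ± 24.3 in Control, Model and LIPUS, Gsto1 at 12.5 ± 1.94, 16.3 ± 3.84 and 17.2 ± 4.17, and Gstt3 at 58.1 ± 10.96, 57.5 ± 39.4 and 60.3 ± 19.6. Gsto2, Gstt1 and Gstt2 lay between 0.195 and 12.1 over the 15 libraries.

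Nqo1 and Hmox1 are common readouts of NRF2. Nqo1, a quinone reductase, averaged 2.29 ± 0.847 scaled FPKM over Control, 10.1 ± 5.72 over Model and 6.82 ± 5.74 over LIPUS, and was not called, though array weights, which count outlying libraries less, called it higher in Model. Model_7, at 0.526, was below all Control libraries and the other 4 Model libraries, at 9.69 to 14.5, were above them. Hmox1, which breaks down haem, was at 0.857 ± 0.168, 0.860 ± 0.604 and 2.09 ± 0.823. All LIPUS libraries, from 1.10 to 3.04, lay above all Control libraries, with limma adjusted p = 0.0572 against Control and 0.0686 against Model, but the log2 change against Control was −0.20 as deposited. The promoter window of Nqo1 held no core.

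**Figure D2:**
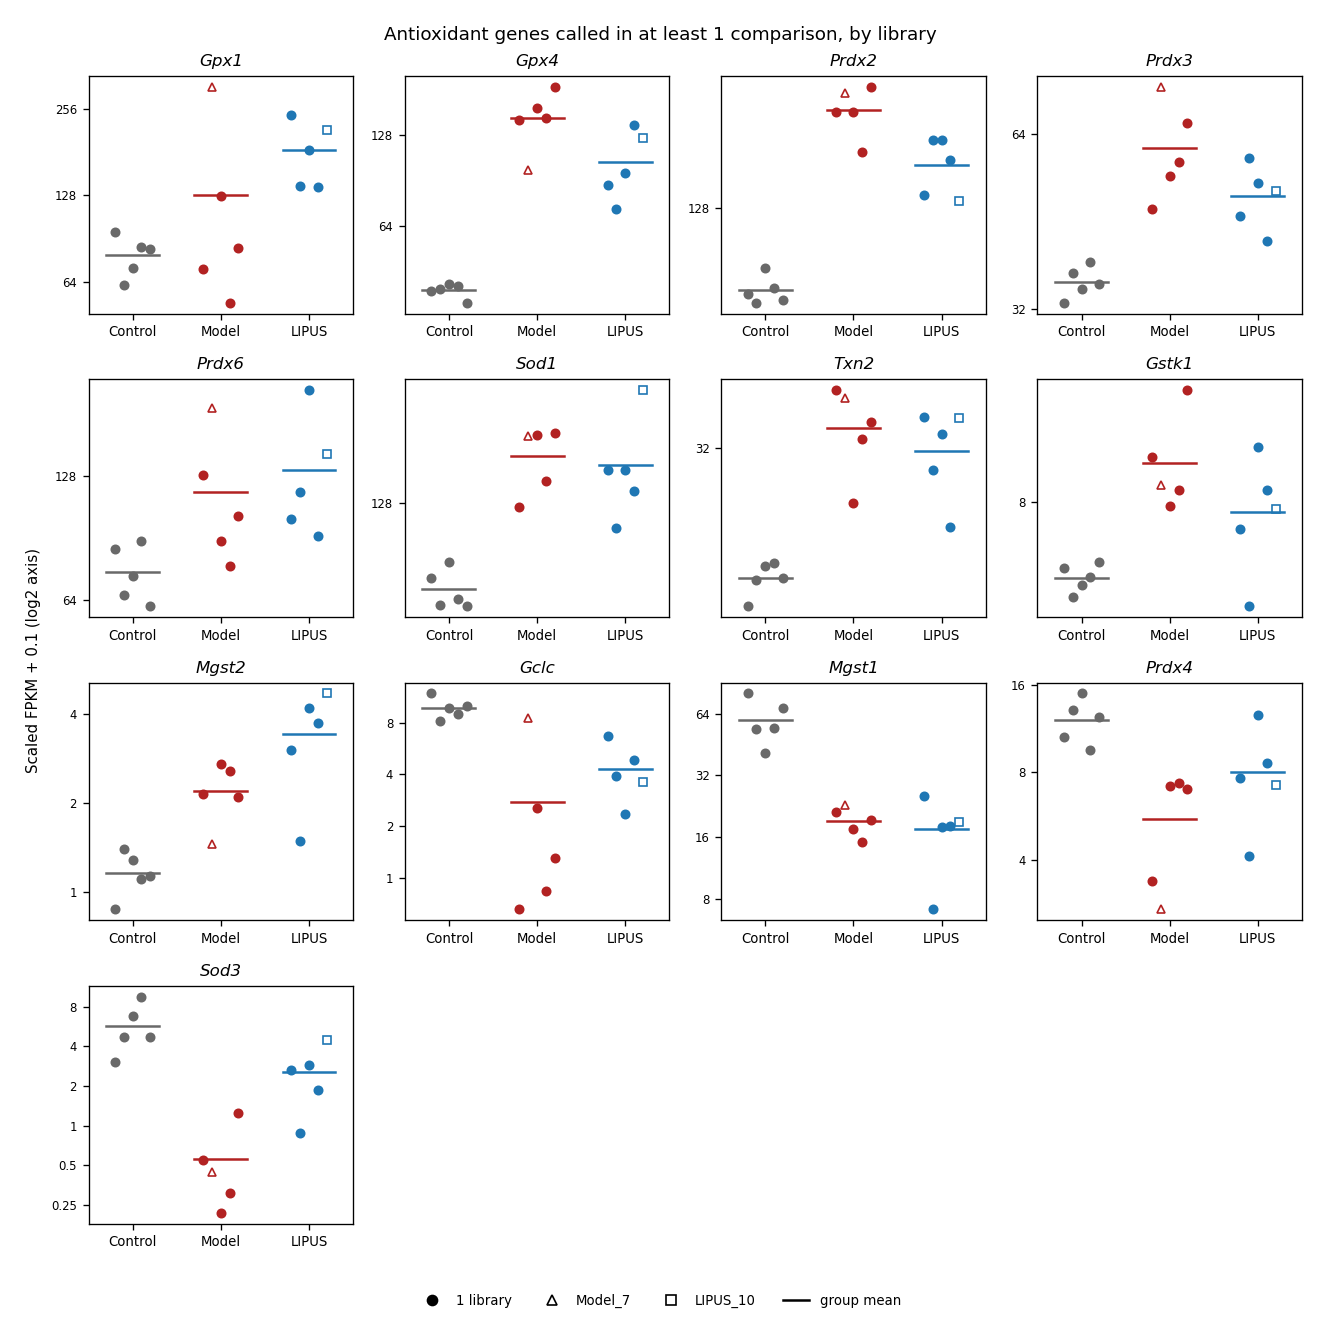
Scaled FPKM plus 0.1 (log2 axis) of the 13 antioxidant genes called in at least 1 comparison, with 1 point per library, bars at the group means, open triangles for Model_7 and open squares for LIPUS_10. Gpx4, Prdx2, Prdx3, Sod1, Txn2 and Mgst2 sit above Control in every Model and LIPUS library on the scaled values; as deposited, only Gpx4 in Model (110.1 to 188.8 FPKM against 59.1 to 73.1 in Control) stays free of overlap in that direction, and the log2 change turns in LIPUS for all of these but Mgst2 and in Model for Prdx3 and Txn2. Sod3 lies below Control in Model and overlaps both groups in LIPUS.

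Among groups compared as whole ranges, 7 antioxidant genes lay above Control in every Model library and 3 lay below it (Mgst1, Prdx4 and Sod3), where 14.1% and 18.3% of all tested genes did so and 15.3% and 20.2% were called. In LIPUS 12 lay wholly above Control and 2 wholly below, beside 11.2% and 15.3% of all genes, and 11.6% and 14.3% were called. The genes above were Gpx1, Gpx4, Gstm1, Gstm5, Hmox1, Mgst2, Prdx1, Prdx2, Prdx3, Prdx6, Sod1 and Txn2, and those below were Gclc and Mgst1. These counts hold for scaled values: as deposited, the LIPUS against Control changes of those above were negative for all but Mgst2, among them Prdx1 (−0.78), Gstm5 (−0.43), Gstm1 (−0.24) and Hmox1 (−0.20). Between LIPUS and Model 0 antioxidant genes were free of overlap, beside 1.6% of all tested genes wholly above and 1.3% wholly below, so 0 is near the background. Of the antioxidant genes, 11 had an unadjusted limma p under 0.05.

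Many antioxidant genes lay apart in Model_7. It was the highest Model library for 27 of the 49 antioxidant genes (55.1%), against 34.0% of all tested genes, and the lowest for 11 (22.4%), against 39.8%. Of the genes already given, Txn1 was 9.37 times, Gstm1 14.7 times and Gclc 8.65 times the median of the other Model libraries in Model_7, and Prdx5 was 4.85 times. Going down, Nqo1 was at 0.0408 times that median and Gpx2 at 0.0627 times. Its lobe ratio, 7.79, was the highest of all 15 libraries, and its part in these levels was not tested. Model_7 also had the lowest seminal vesicle, urothelial and skeletal muscle sums of all libraries, at 18.5, 0.156 and 1.52 scaled FPKM for 6, 4 and 5 markers. Its dorsolateral secretory (274), erythrocyte (84.6), smooth muscle (73.4), fibroblast (53.2), basal epithelial (4.07) and endothelial (0.538) sums were the lowest of all libraries too. Those of the ventral lobe, luminal epithelium, macrophages and adipocytes were not. The seminal vesicle sum was 3266 to 3868 scaled FPKM in the other Model libraries, 67.8 to 3391 in Control and 271 to 9109 in LIPUS.

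**Figure D3:**
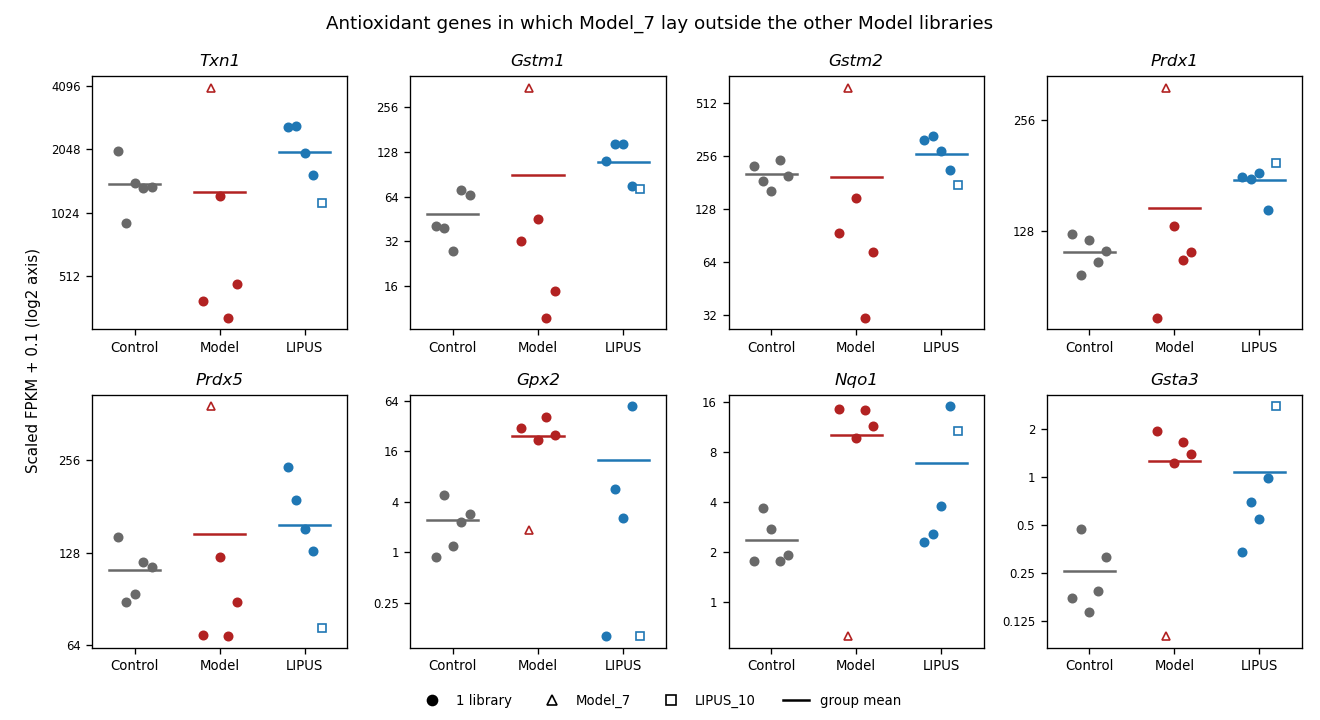
Scaled FPKM plus 0.1 (log2 axis) by group for 8 antioxidant genes in which Model_7 (open triangle) lay outside the other 4 Model libraries, with 1 point per library and bars at group means. Txn1, Gstm1, Gstm2, Prdx1 and Prdx5 reach their highest value of all 15 libraries in Model_7, while Gpx2, Nqo1 and Gsta3 are low there and high in the other Model libraries.

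Without Model_7, 11 antioxidant genes were called higher and 10 lower in Model against Control, beside 21.2% and 25.9% of all genes. The 11 calls made with it all stayed. The genes added as higher were Gpx2 (log2 change 3.84), Gsta3 (2.71), Nqo1 (2.45) and Gsta1 (1.36), and those added as lower were Gstm2 (−1.42), Txn1 (−1.40), Prdx1l1 (−1.39), Gstm5 (−1.13), Gstm1 (−1.10) and Gsr (−0.92). Their limma adjusted p ran from 0.000796 to 0.0482. These added calls depend on how lobe make-up is treated. With all libraries and the lobe ratio as covariate, the Model against Control changes turned for Gstm2 (0.71), Txn1 (0.75), Prdx1l1 (0.47), Gstm5 (0.55), Gstm1 (1.50, called higher at adjusted p = 0.0351 by limma), Gsr (0.18), Gsta3 (−0.079), Nqo1 (−0.36) and Gsta1 (−0.19), and Gpx2 was at 1.01 and not called. In LIPUS against Model, 12 were higher and 3 lower, beside 15.1% and 16.9% of all genes. Higher were Gstm1 (2.28), Sod3 (2.27), Prdx1l1 (2.18), Gstm5 (2.13), Txn1 (1.86), Gclc (1.80), Gstm2 (1.76), Hmox1 (1.64), Gpx3 (1.58), Gpx1 (1.16), Gsr (0.83) and Prdx1 (0.75), and lower were Gpx2 (−4.25), Gpx4 (−0.63) and Prdx2 (−0.38). With the lobe covariate Sod3 alone was called in that comparison (2.33, limma adjusted p = 0.0387). In LIPUS against Control 17 were higher and 2 lower, beside 14.7% and 19.7%. The remaining Model libraries share a low lobe ratio that Control and LIPUS do not have, so lobe make-up and group cannot be told apart there.

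Other genes of the same biology were counted in lists chosen for their roles, with earlier results of these data known. For their counts, the shares of all genes called higher and lower are 15.3% and 20.2% in Model against Control, 2.72% and 1.49% in LIPUS against Model and 11.6% and 14.3% in LIPUS against Control. Of 11 tested regulators of NRF2, 2 rose and 1 fell in Model, near or under those shares. Keap1, the adaptor that marks NRF2 for destruction, rose by 1.42 (SE 0.18, limma adjusted p = 4.14e-05) from 5.28 to 6.28 scaled FPKM in Control to 10.9 to 19.9 in Model. Rbx1, a subunit of the same ubiquitin ligase, rose by 0.74 (limma adjusted p = 0.00137), which turns to −0.041 as deposited. Nfe2l1, a relative of NRF2, fell by 1.58 (limma adjusted p = 0.000446). The same 3 were called in LIPUS against Control, with Keap1 at 0.75, Rbx1 at 0.78 and Nfe2l1 at −1.52, and the deposited values turn Keap1 to −0.66 and Rbx1 to −0.65. Nfe2l2, the gene of NRF2 itself, was not called, at 6.96 ± 0.826, 7.50 ± 2.11 and 6.94 ± 2.60 in Control, Model and LIPUS.

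Of 18 tested genes of glutathione supply, transport and breakdown, 3 rose and 6 fell in Model, beside 15.3% and 20.2% of all genes, with a median log2 change of −0.78 beside −0.15 over all genes. Slc3a2, the heavy chain of the cystine importer, fell from 28.9 ± 2.37 to 6.90 ± 1.40 scaled FPKM (log2 change −2.07, limma adjusted p = 0.000175), and Anpep, which cleaves glutathione-derived dipeptides, fell by 2.47 (adjusted p = 0.00184). Ggct, which breaks down gamma-glutamyl peptides, rose by 2.27 (limma adjusted p = 6.15e-05), with 31.9 in the lowest Model library and 19.0 in the highest Control library. Glo1, which detoxifies methylglyoxal with glutathione, rose by 1.11 (limma adjusted p = 1.61e-05). All 4 were called the same way in LIPUS against Control, where 3 rose and 3 fell, and Glo1, at 1.10, turns to −0.33 as deposited.

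Among 28 other thiol and selenium proteins, 12 rose and 3 fell in Model, beside 15.3% and 20.2% of all genes. Against Control, 8 rose and 0 fell in LIPUS, beside 11.6% and 14.3%, where 11 had an unadjusted limma p under 0.05. The glutaredoxins Glrx3 (1.74), Glrx2 (1.54) and Glrx5 (1.27) and the selenium-dependent methionine sulfoxide reductase Msrb1 (1.27) led the rise in Model, with limma adjusted p between 8.3e-06 and 0.000715. Glrx3, which carries iron-sulfur clusters, ran from 26.3 to 34.8 scaled FPKM in the Control libraries, 79.8 to 121 in Model and 42.5 to 65.8 in LIPUS, so the groups did not overlap. Glrx3 (−0.83) and Glrx2 (−0.90) were the 2 genes called lower in LIPUS against Model (limma adjusted p = 0.0184 and 0.0226). Over Control, Selenow rose by 1.62 in LIPUS, Ccs, the copper chaperone of Sod1, by 1.03, Glrx3 by 0.91 and Selenok by 0.82, and as deposited Ccs, Glrx3 and Selenok turn to −0.39, −0.52 and −0.61.

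Of 10 tested haem and iron genes, 5 rose and 2 fell in Model, beside 15.3% and 20.2% of all genes, and 4 rose and 1 fell in LIPUS against Control, beside 11.6% and 14.3%. Fth1, the ferritin heavy chain, ran from 392 to 783 scaled FPKM in the Control libraries, 1997 to 7739 in Model and averaged 2972 ± 905 in LIPUS, a log2 change of 3.30 in Model (SE 0.36, limma adjusted p = 1.5e-05) and 2.43 in LIPUS (adjusted p = 0.000273). Ftl1, the light chain, whose many processed copies may share reads, rose by 2.11 and 2.53, and Ncoa4, which brings ferritin to lysosomes, rose by 1.54 in Model. Tfrc, the transferrin receptor, fell by 1.45 and 2.05, and Blvra, which reduces biliverdin after haem oxygenase, rose by 1.02 in LIPUS and turns to −0.39 as deposited. Between LIPUS and Model 0 of the 10 were called by limma, and 2 had an unadjusted p under 0.05.

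Of 12 tested NADPH-supplying genes, 3 rose and 1 fell in Model, beside 15.3% and 20.2% of all genes. They were Pgls (1.71), Idh1 (1.48) and Pgd (0.61, which turns to −0.17 as deposited) and Tkt (−0.71), with limma adjusted p between 0.000946 and 0.0404. Nnt, the mitochondrial transhydrogenase, fell in LIPUS against Model by 1.00 (limma adjusted p = 0.0251) and against Control by 1.26. Of 17 genes that make oxidants, 8 were tested, and 2 rose and 4 fell in Model, 2 rose from Model to LIPUS and 2 rose in LIPUS over Control. The NADPH oxidase subunits Ncf1 and Cyba rose in Model (1.14 and 1.43) and in LIPUS over Control (1.59 and 1.69). Cybb, the catalytic subunit of phagocytes, fell by 2.46 in Model (limma adjusted p = 0.0209) and rose by 3.46 from Model to LIPUS (adjusted p = 0.0253), and Xdh, xanthine dehydrogenase, fell by 1.41 and rose by 1.69. The macrophage sums given above were also higher in LIPUS than in Control, and their part in the levels of Ncf1, Cyba and Cybb was not tested. In LIPUS against Model 0 regulators of NRF2 and 0 genes of glutathione supply were called by limma, with 3 in each list at an unadjusted p under 0.05.

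**Figure D4:**
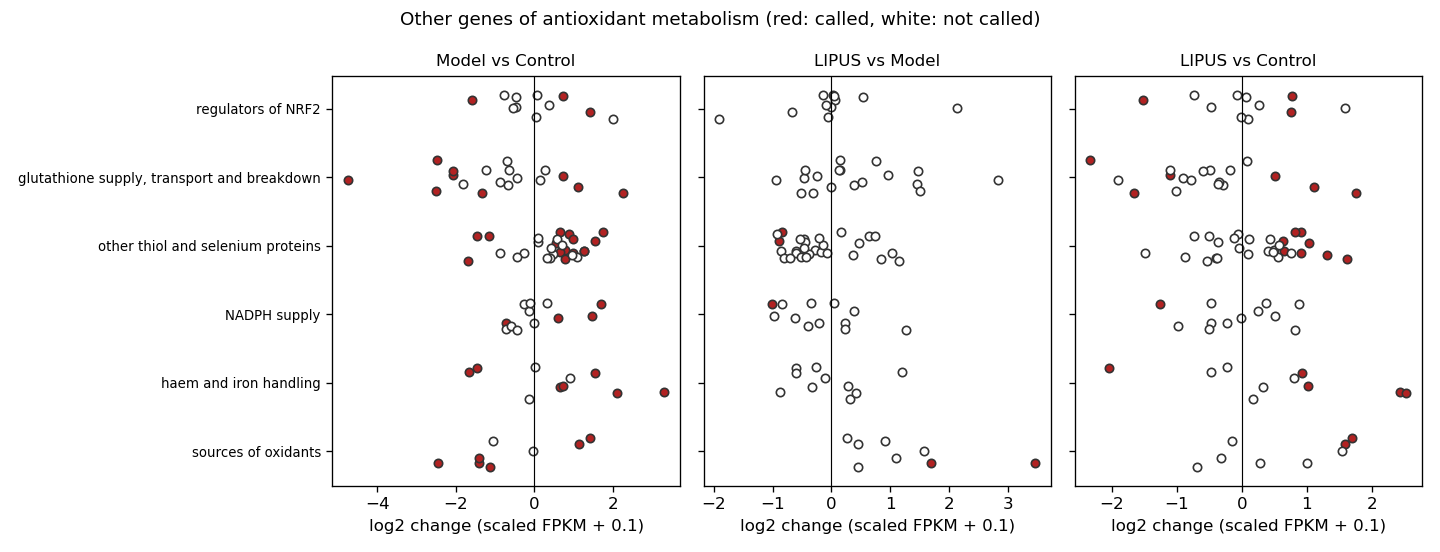
Log2 change of scaled FPKM plus 0.1 for the tested genes of 6 lists (rows) in the 3 comparisons (panels), with 1 point per gene and red for genes called at a limma adjusted p under 0.05. The thiol and selenium list leans right of 0 in Model against Control, where its median is 0.62, and left of it in LIPUS against Model, where its median is −0.40. Deposited values move the median gene by −0.90, −0.60 and −1.48 in the panels and turn the sign of 2 named genes in Model against Control and 7 in LIPUS against Control.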

How the data were processed

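The deposited table gives FPKM, which is fragments per unit of gene length and depth, for 15 rat prostate libraries made from total RNA, per the labels' protocols and the file header. The submitters' processing notes name fastp, HISAT2, SAMtools, HTSeq, DESeq2, R 3.2.0 and the rn6 build, without their roles. The counting strand is not given in the sources used here. From the FPKM values, whole reads were recovered for all 22436 genes within 0.001, 29675962 to 36402094 per library. Each gene was given the shortest length that yields whole reads, so counts of genes seen in few libraries are lower bounds. In a 2000-base gene 3 reads correspond to 0.0412 to 0.0505 FPKM, for counting error only.

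FPKM was divided by a median-of-ratios factor over 10313 genes above 0 in every library. Genes above 0.5 FPKM in 5 or more libraries (12490) entered a limma 3.58.1 trend fit (R 4.3.3) of log2(scaled FPKM + 0.1), with all 15 libraries and 3 groups, leaving 12 residual degrees of freedom. A fold change on this scale understates low genes. P-values were Benjamini-Hochberg adjusted over all tested genes. The fits were tested on simulated data. Library measures were compared with two-sided exact permutation tests. Replicate numbers 6 to 10 occur in each group. No 2 libraries of the same group agreed within sampling noise (lowest chi-square per degree of freedom 80.3).

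The antioxidant genes, pathway lists and markers were chosen with earlier results of these data known. Every antioxidant gene is named; changes and directions are given for called genes. Values in every library are given for the 10 called genes with the smallest adjusted p in each comparison, for genes called in both Model against Control and LIPUS against Model, and for the 5 with the highest mean. At most 4 called genes per list and comparison are named. Alternatives covered scaling, pseudocounts of 0.01 and 1, filters, array weights, a lobe covariate, the replicate block, 2-group fits and leaving out each library. Leaving out Model_7 and LIPUS_10 together was chosen after seeing the data.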

Additional observations from a re-analysis of the deposited data

Results flagged for a closer look

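In 10 of 147 sets of 5 libraries, the highest or lowest library stood farther from its nearest neighbour, relative to the range of the set on the log2 scale, than Dixon's 95% critical value of 0.71 allows; chance gives about 7.35. Of the 10, 4 were low values in Model_7, and these were Gpx2 at 1.73 scaled FPKM, Gsta1 at 13.7, Gsta3 at 0 and Nqo1 at 0.526. LIPUS_7 was the low library for Gstp1 at 7.28 and Mgst1 at 6.98. LIPUS_10 was the low library for Gstt3 at 28.4 and the high one for Txnrd2 at 3.59. LIPUS_6 was the low library for Gstm4 at 2.17, and Control_7 was the low library for Gpx3 at 8.03.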

How the results depend on the processing

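Of 567 values of called antioxidant genes over the alternatives, 501 kept their direction and side of the threshold, 55 kept only their direction and 11 reversed; for named genes of the pathway lists these were 1140, 93 and 9 of 1242. For Model against Control, antioxidant genes called higher (7) became 1 as deposited, 2 scaled to the nuclear sum, 15 with array weights, 13 with the lobe ratio as covariate and 12 without Model_7 and LIPUS_10, and ran from 5 to 11 when 1 library was left out. Those called lower (4) became 11 as deposited, 14 with array weights and 13 without those 2 libraries, and ran from 4 to 10. Of all 12490 genes, the main fit called 1911 higher and 2522 lower. These became 368 and 5382 as deposited and 668 and 4073 scaled to the nuclear sum. They became 3434 and 4246 with array weights, 1641 and 2545 with the lobe ratio and 3019 and 3640 without those 2 libraries. For LIPUS against Model, antioxidant genes called higher (1) became 0 with only the 2 groups, 9 with array weights, 0 with the replicate block and 15 without those 2 libraries, and ran from 0 to 12. Those lower (0) became 4 as deposited, 1 with array weights and 3 without those 2 libraries, and ran from 0 to 3. Of all genes, 340 were higher and 186 lower in the main fit, and 163 and 1657 as deposited. They were 1 and 0 with only the 2 groups and 1286 and 1279 with array weights. They were 104 and 24 with the replicate block and 2076 and 2315 without those 2 libraries. For LIPUS against Control, antioxidant genes called higher (8) became 0 as deposited, 5 with quantile normalization, 2 scaled to the nuclear sum, 16 with only the 2 groups, 20 with the lobe ratio and 15 without those 2 libraries, and ran from 5 to 17. Those lower (1) became 22 as deposited, 3 scaled to the nuclear sum, 3 with a pseudocount of 1, 3 with only the 2 groups, 3 with array weights, 2 with the lobe ratio and 3 without those 2 libraries, and ran from 1 to 2. Of all genes, 1448 were higher and 1780 lower in the main fit, and 119 and 9296 as deposited. They were 1359 and 1586 with quantile normalization, 595 and 2411 with the nuclear sum and 1493 and 2036 with a pseudocount of 1. They were 1756 and 2275 with only the 2 groups and 1764 and 2649 with array weights. They were 1884 and 2596 with the lobe ratio and 1983 and 2666 without those 2 libraries. The upper ends of 11, 10, 12, 3 and 17 are all without Model_7. The end of 0 came without Model_8, Model_9, LIPUS_8 or LIPUS_10, that of 5 in LIPUS against Control without Control_8, and that of 2 without Model_7, Model_10 or LIPUS_10. The cause was not tested.

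As deposited, log2 changes in Model against Control reversed for Gstk1 (−0.24), Prdx3 (−0.033), Txn2 (−0.21), Rbx1 (−0.041) and Pgd (−0.17). In LIPUS against Control they reversed for Gpx1 (−0.25), Gpx4 (−0.068), Prdx2 (−0.52), Prdx3 (−0.95), Prdx6 (−0.66), Sod1 (−0.60), Txn2 (−0.95), Rbx1 (−0.65), Keap1 (−0.66), Glo1 (−0.33), Ccs (−0.39), Glrx3 (−0.52), Selenok (−0.61) and Blvra (−0.39). Scaled to the nuclear sum, Gstk1 reversed to −0.0013 in Model against Control. Deposited values move the median gene, by their construction without the scaling factor.

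The labels do not say whether the replicate numbers pair the libraries, and no pairing was seen in the levels. A pairing that is small beside the differences within groups would not be seen this way. Same-numbered libraries of different groups correlated at −0.42 to 0.25 in their deviations from the group means, other libraries at −0.379 to 0.458, and the own number was the best match in 5 of 30 cases. With the replicate block, 8 antioxidant genes were called higher and 4 lower in Model against Control, 0 and 0 in LIPUS against Model (Sod3 adjusted p = 0.0561 by limma), and 7 and 1 in LIPUS against Control. Of all 12490 genes, that fit called 1779 and 2356, 104 and 24, and 1297 and 1564 in the same order. Mitochondrially encoded genes took up to 83.3% of the reads, in LIPUS_10, so the depth left for other genes differed between libraries. The effect of depth on the calls was not tested. Gpx5, Gsta2 and Gstm3l did not pass the filter of 0.5 FPKM in 5 libraries and could not be tested.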
